A study of Arundo donax with 9 samples.

Results

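CBL-interacting protein kinases (CIPKs) were followed in leaves of giant reed (Arundo donax), a perennial, polyploid grass, under 2 doses of prolonged salt stress. The kinases were found by the name of their best Swiss-Prot hit, which carries either the form used for rice, CBL-interacting protein kinase and a number, or the form used for Arabidopsis, CBL-interacting serine/threonine-protein kinase and a number. Of 255855 unigenes listed in at least 1 library, 210 carried such a name. They fell under 33 names, 29 of the rice form with 198 unigenes and 4 of the Arabidopsis form with 12 unigenes, which are written here as CIPK and AtCIPK with their number. By the study's methods a unigene is the longest transcript of a cluster in an assembly made without a genome. The study gives differing totals of unigenes, and the number of entries listed here is close to the larger one. The copies and fragments of a polyploid gene are spread over several unigenes of 1 name.

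CIPKs are the kinase side of a calcium relay in plant cells. When calcium rises in the cytosol, calcineurin B-like proteins (CBLs) bind it, dock on the regulatory NAF domain of a CIPK, release the kinase from its own inhibition and bring it to the plasma membrane or the vacuole. The best known relay is the SOS pathway of Arabidopsis, where SOS2 (CIPK24) with SOS3 (CBL4) in roots or CBL10 in shoots activates the sodium/proton antiporter SOS1. Others act on channels and transporters of potassium, nitrate, ammonium and anions. Equal numbers in rice and Arabidopsis do not always mark the same ancestor, and the roles given below are those of the Arabidopsis kinase unless rice is named.

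All plants belonged to the single clone G2 and were grown from rhizomes, 1 to a pot, in pots set out in randomized blocks and irrigated weekly, with tap water until sprouting. Control leaves (G2-CK) had water with 0 mM NaCl, severe stress (G2-S3) water with 250 mM NaCl and extreme stress (G2-S4) water with 420 mM NaCl, with saline water from August on until leaves were taken in November (non-senescent, the third from the top). These doses are those of the sample labels, and the methods of the study give slightly different concentrations. Each group had 3 libraries, described in the study's methods as biological replicates, and a single clone at a single date limits the comparison to this clone. The 9 libraries held between 22794638 and 25436737 listed reads. Their totals, estimated from count, FPKM and length, lay between 23008092 and 25685946 reads. Only unigenes above 0.3 FPKM were listed for a library, so a missing value means below that limit and not zero.

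Domain annotation was checked against the names. The NAF domain was annotated in 115 of the 210 unigenes and the protein kinase domain in 168, with both in 96. Lengths ran from 202 to 3708 bases with a median of 1179, so many unigenes hold only part of a kinase. The expression filter was passed by 156 unigenes and, after the counts of all unigenes of a name had been summed, by 30 of the 33 names. CIPK30, AtCIPK6 and AtCIPK8 lay below it, at 0.164 CPM or less in every library.

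Levels of different kinases were compared per length, as FPKM summed over the unigenes of at least 500 bases of each name. In control leaves CIPK1 stood highest by this sum at 116 ± 12.9 FPKM (mean ± SD, n = 3) and CIPK2 followed at 100.1 ± 3.14 FPKM, and their ranges overlapped. Each unigene of a name adds to its sum, and the sums took in 19 CIPK1 and 5 CIPK2 unigenes. The place of CIPK1 rests on its unigenes whose best Nr or Nt hit named CIPK17, which held 88 ± 6.18 FPKM of it, while the others held 28.4 ± 7.28 FPKM. CIPK19 (69.0 ± 4.47 FPKM), CIPK32 (65.5 ± 5.16 FPKM), CIPK24 (63.8 ± 2.79 FPKM), CIPK16 (63.4 ± 10.1 FPKM) and CIPK31 (59.8 ± 21.5 FPKM) formed the next step, in which neighbours did not differ beyond their spread. CIPK17, CIPK23, CIPK6 and CIPK9 lay between 39.8 and 54.4 FPKM (the SD of CIPK23 was 31.6 FPKM), and CIPK14 stood at 3.37 ± 0.493 FPKM. The place of CIPK23 is uncertain, since its control libraries held 81.2, 57 and 18.5 FPKM but 38.4, 26.9 and 21.6 CPM. The deposited FPKM per read of its unigene Cluster-14027.221264 (2545 bases) varied between libraries, as given below. In G2-S4 leaves CIPK1 reached 394 ± 53.3 FPKM, of which 320.2 ± 49.7 FPKM lay in the unigenes without such a hit, far above CIPK24 at 95.8 ± 0.474 FPKM. CIPK29 had dropped from 32.2 ± 7.44 to 2.35 ± 0.815 FPKM. The choice of 500 bases was made after the data had been seen, because FPKM of short unigenes was unstable: the CIPK1 unigene with the largest mean FPKM was a fragment of 207 bases with 0.684 CPM or less in every library. The order depends on this choice. By the unigene with the largest mean FPKM alone, CIPK2 held rank 1 and CIPK1 rank 19 in control leaves.

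Within a kinase, libraries were compared by CPM, the count of a kinase scaled to the TMM-adjusted total of its library. A change was called where the adjusted p of edgeR's quasi-likelihood test (Benjamini-Hochberg over the whole table) was under 0.05. All CIPK unigenes together held 951, 963 and 943 CPM in the G2-CK libraries, 962, 1012 and 946 CPM in G2-S3 and 1271, 1319 and 1309 CPM in G2-S4. This total was thus higher in all G2-S4 libraries than in any other library, while the G2-S3 and G2-CK libraries overlapped. Its mean was 953 CPM in G2-CK and 1300 CPM in G2-S4, of which CIPK1 held 79.9 and 239 CPM. The names did not all move with the total, as 12 were called higher and 8 lower in G2-S4 vs G2-CK. In bulk leaf RNA, fewer cells of a type and less RNA per cell cannot be told apart.

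At the severe dose (G2-S3 vs G2-CK) the test called 9 of the 30 summed kinase names. CIPK1, CIPK14 and CIPK24 rose, which is 10% of the names beside 10.5% of all 12242 summed Swiss-Prot descriptions. CIPK2, CIPK4, CIPK16, CIPK18, CIPK22 and CIPK25 fell, 20% of the names beside 5.51%. The median log2 fold change was −0.08 over the names and 0.03 over all descriptions. Without replicate 2 of the controls 4 names were called and without replicate 3 of the controls 5, both from 9 with all libraries. Comparisons against G2-CK share the same 3 control libraries.

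In G2-S4 vs G2-CK, 20 of the 30 names were called. The 12 that rose were CIPK1, 6, 7, 8, 9, 10, 11, 14, 19, 23, 24 and 26, 40% of the names beside 31.6% of all descriptions. The 8 that fell were CIPK4, 16, 17, 22, 25, 27, 29 and AtCIPK21, 26.7% beside 20%. The median log2 fold change was 0.28 over the names and 0.09 over all descriptions. Between the doses, in G2-S4 vs G2-S3, 12 names were higher (40% beside 20.6%) and CIPK17 and CIPK29 were lower (6.67% beside 14%). Of the 12 names that rose in G2-S4, 9 were not called in G2-S3. Rises were fewer in G2-S3 over all descriptions too (10.5% beside 31.6% in G2-S4), and this overlap was not counted over all descriptions.

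**Figure D1:**
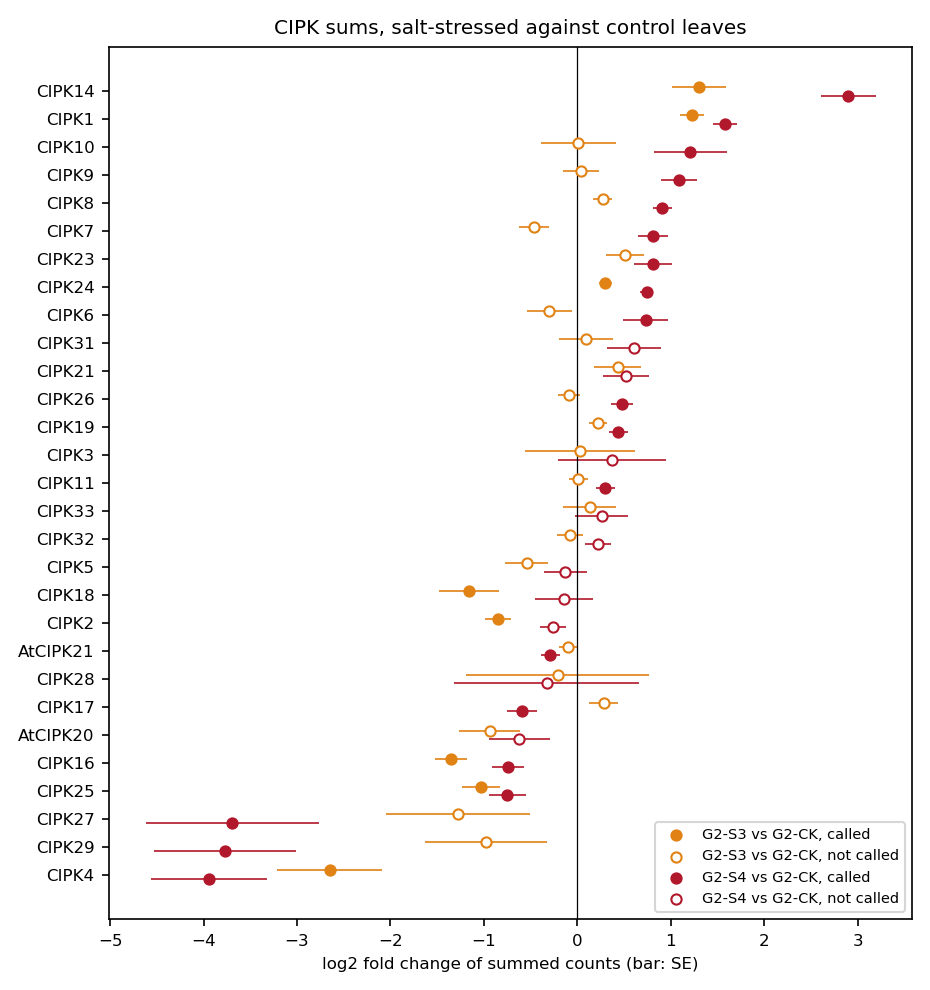
Log2 fold changes of the summed counts of 29 kinase names in G2-S3 and G2-S4 leaves against G2-CK, with standard errors as bars (3 libraries a group); filled points passed the test. CIPK14 (2.90) and CIPK1 (1.58) lie farthest to the right in G2-S4 and CIPK4 (−3.94) and CIPK29 (−3.77) farthest to the left; CIPK22, which no salt-stressed library listed, is left out.

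The unigenes were also tested one by one. Between G2-S3 and G2-CK, 16 of the 156 tested unigenes rose (10.3% beside 3.40% of all 127554 tested) and 16 fell (10.3% beside 2.32%). In G2-S4 vs G2-CK, 46 rose (29.5% beside 14.2%) and 26 fell (16.7% beside 13.8%). In G2-S4 vs G2-S3, 37 were higher (23.7% beside 7.23%) and 12 lower (7.69% beside 6.88%). The count at the severe dose was 12 to 14 without replicate 2 or 3 of G2-CK or replicate 1 of G2-S3, and 20 without replicate 1 of G2-CK or replicate 2 of G2-S3. The count between the doses was 29 to 32 without replicate 1 or 3 of G2-S3 or replicate 2 or 3 of G2-S4.

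CIPK24, the rice counterpart of SOS2, rose step by step with the dose. It stood at 71.8, 68.9 and 63.9 CPM in the G2-CK libraries, at 78.8, 90.6 and 83.1 CPM in G2-S3 and at 116, 113 and 113 CPM in G2-S4, and no 2 groups overlapped. The rise was 1.23-fold in G2-S3 (log2 0.30 ± 0.07 SE, adjusted p = 0.0266) and 1.67-fold in G2-S4 (log2 0.74 ± 0.07, adjusted p = 6.7e-05), and the doses differed (log2 0.44 ± 0.07, adjusted p = 0.0023). The call at the severe dose was lost without replicate 2 (adjusted p = 0.0832) or 3 (0.0963) of G2-CK or replicate 2 of G2-S3 (0.0932), and with only these groups in the fit (0.0566). The CIPK24 unigene with the largest mean FPKM, Cluster-14027.198243, went from 16.4, 15.3 and 13.8 CPM in G2-CK over 19.1, 20.7 and 17.9 CPM in G2-S3 to 35.2, 30.3 and 30.1 CPM in G2-S4. It was called in G2-S4 (log2 1.07 ± 0.12, adjusted p = 0.000115) and not in G2-S3 (log2 0.34 ± 0.12, adjusted p = 0.123). Of the 10 tested CIPK24 unigenes 4 rose in G2-S4 and 6 were not called.

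CIPK8, which in Arabidopsis takes part in nitrate responses and can also act on SOS1 with CBL10, passed the test in G2-S4 alone. Its sums were 27.5, 32.3 and 30 CPM in G2-CK, 33.6, 41.4 and 33.2 CPM in G2-S3 and 54.3, 59.1 and 55.0 CPM in G2-S4. The G2-S4 libraries lay above all others (log2 0.91 ± 0.10 against G2-CK, adjusted p = 0.000126), whereas G2-S3 did not pass the test (log2 0.27 ± 0.10, adjusted p = 0.106) although its libraries also lay above the controls. Cluster-14027.145218, with 73.3% of the CIPK8 reads in G2-CK and 57.8% in G2-S4, had a log2 fold change of 0.56 ± 0.11 (adjusted p = 0.00337) and the smaller Cluster-14027.107413 one of 1.92 ± 0.44 (adjusted p = 0.00854) in G2-S4 vs G2-CK, and the difference between these copies was not tested.

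CIPK23 and CIPK9 are linked to potassium. CIPK23 activates the potassium channel AKT1 and the transporter HAK5 and modifies the nitrate sensor NRT1.1, and CIPK9 acts in potassium homeostasis at the vacuole. CIPK23 sums were 38.4, 26.9 and 21.6 CPM in G2-CK, 40.7, 41.5 and 41.9 CPM in G2-S3 and 40.6, 52.4 and 59.4 CPM in G2-S4. It rose 1.75-fold in G2-S4 (log2 0.81 ± 0.20, adjusted p = 0.00826), and G2-S3 was not called (log2 0.51 ± 0.20, adjusted p = 0.112) although each G2-S3 library was above each control. Replicate 1 of G2-CK was the highest control, and without it G2-S3 was called as well (log2 0.77, adjusted p = 0.0288). The CIPK23 unigene with the largest mean FPKM, Cluster-14027.221264, held 10.5 to 16.7 CPM in G2-CK and 16.1 to 23.4 CPM in G2-S4 (log2 0.67 ± 0.19, adjusted p = 0.0243), a call lost without replicate 2 or 3 of G2-CK or of G2-S4 (highest adjusted p = 0.0984). Its FPKM is no guide, since the deposited FPKM per read differed by up to 7.44-fold between libraries for this unigene.

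CIPK9 likewise was called against G2-CK in G2-S4 alone. The sums were 46.8, 67.0 and 71.1 CPM in G2-CK, 72.3, 70.7 and 47.4 CPM in G2-S3 and 127, 124 and 144 CPM in G2-S4, so that G2-CK and G2-S3 overlapped fully. The rise was 2.14-fold against G2-CK (log2 1.09 ± 0.19, adjusted p = 0.00135) and 2.07-fold against G2-S3 (adjusted p = 0.00322). Its main unigene, Cluster-14027.184301, with 68.4% of the reads in G2-S4, had a log2 fold change against G2-CK close to that of the sum (1.11 ± 0.18, adjusted p = 0.00115), and 4 of the 6 tested CIPK9 unigenes rose.

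**Figure D2:**
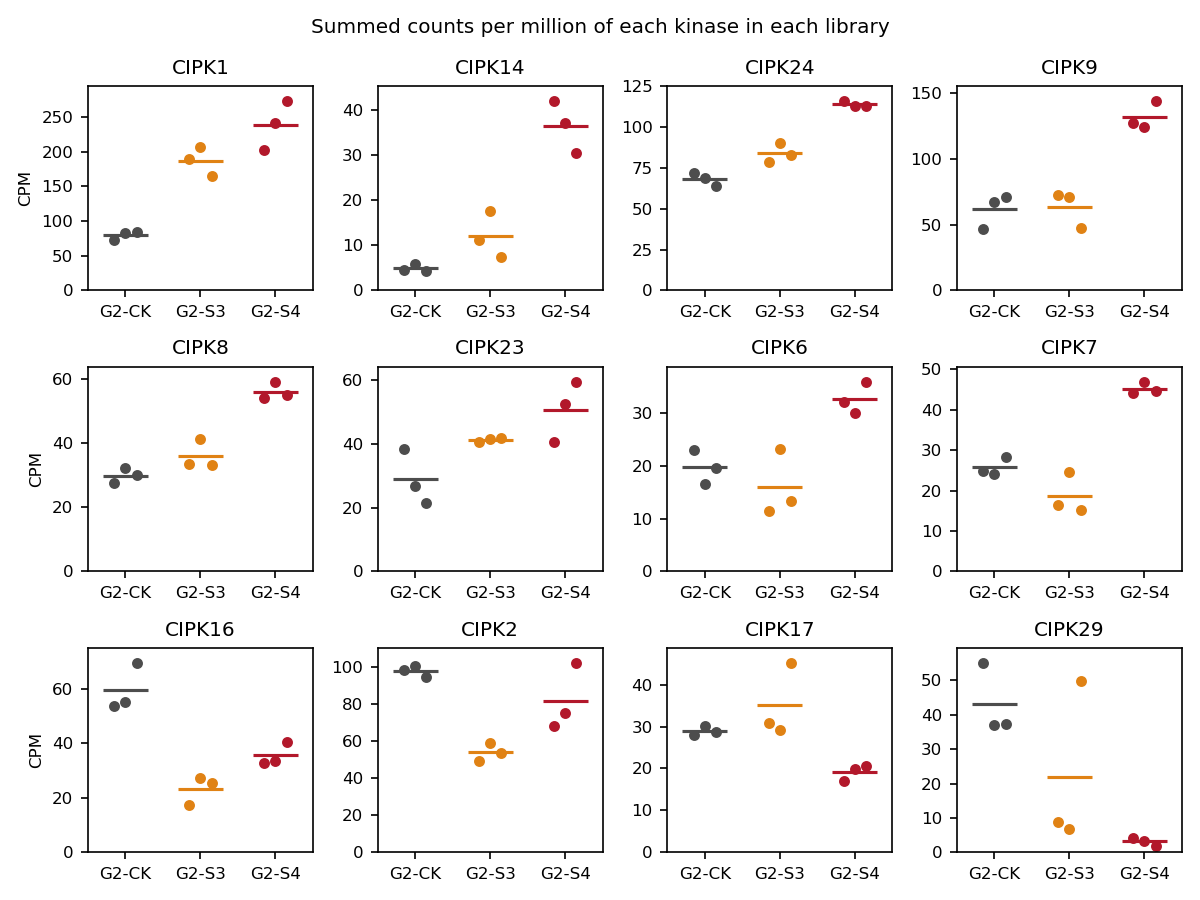
Summed CPM (linear axis from 0) of 12 kinases in each of the 9 libraries, points for libraries and lines for group means. CIPK24 climbs with each dose, CIPK9, CIPK8, CIPK6 and CIPK7 are high in G2-S4 only, CIPK16 and CIPK2 are lowest in G2-S3, and 1 G2-S3 library of CIPK29 (49.8 CPM) lies among the controls.

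CIPK1, which partners CBL1 and CBL9 in osmotic stress and abscisic acid responses of Arabidopsis, gained most reads. Its 25 unigenes held 72.7, 83.1 and 83.9 CPM in G2-CK, 189, 207 and 165 CPM in G2-S3 and 202, 242 and 273 CPM in G2-S4. The rise was 2.35-fold in G2-S3 (log2 1.23 ± 0.13, adjusted p = 0.00124) and 2.99-fold in G2-S4 (log2 1.58 ± 0.13, adjusted p = 2.5e-05). The doses overlapped (165 to 207 against 202 to 273 CPM) and their difference was not called (log2 0.35 ± 0.12, adjusted p = 0.0555). It was called without replicate 2 of G2-S3 (adjusted p = 0.0426) or replicate 1 of G2-S4 (0.0236), with RLE factors (0.0462), with missing values at their limit (0.0478) and with unigenes listed in all libraries only (0.0485).

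The sum of CIPK1 hid 2 kinds of unigene. For 6 of the 25 the best Nr or Nt hit named CIPK17, a split made after the data had been seen. The other 19 held 12.3, 15.8 and 19.2 CPM in G2-CK, 95, 115 and 53.6 CPM in G2-S3 and 147, 181 and 212 CPM in G2-S4, an 11.4-fold rise at the extreme dose (log2 3.51 ± 0.30, adjusted p = 3.0e-05) and 5.57-fold at the severe dose (log2 2.48 ± 0.29, adjusted p = 0.00182). Here no 2 groups overlapped and the doses differed (log2 1.03 ± 0.27, adjusted p = 0.0159). The 6 with a CIPK17 hit held 60.3 to 67.3 CPM in G2-CK, 92.5 to 112 CPM in G2-S3 and 55.8 to 61.3 CPM in G2-S4. They rose at the severe dose (log2 0.63 ± 0.09, adjusted p = 0.00357), were lower in G2-S4 than in G2-S3 (log2 −0.75 ± 0.09, adjusted p = 0.000437) and were not called in G2-S4 vs G2-CK (log2 −0.11 ± 0.09, adjusted p = 0.317).

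Among the CIPK1 unigenes without that hit, Cluster-14027.190186 (688 bases, with the NAF domain) carried most reads. It rose from 3.44, 4.36 and 4.49 CPM in G2-CK to 34.3, 45.6 and 18.4 CPM in G2-S3 and 68.2, 85.7 and 96.2 CPM in G2-S4 (log2 3.00 ± 0.30 and 4.35 ± 0.31, adjusted p = 0.000868 and 1.1e-05), and both calls held without any single library. Cluster-14027.83671 (log2 3.65 ± 0.29), Cluster-14027.180576 (3.71 ± 0.41), Cluster-14027.190185 (3.37 ± 0.38), Cluster-14027.196826 (4.19 ± 0.37) and Cluster-14027.239350 (4.03 ± 0.33) rose alike in G2-S4 vs G2-CK. All 5 were also called in G2-S3 vs G2-CK, with log2 values between 2.32 and 3.46. The fragment with the largest mean FPKM, Cluster-14027.182902, went from 0.0396 CPM in the 1 control library that listed it to between 0.223 and 0.684 CPM in G2-S4.

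Cluster-14027.182899 (2484 bases) was listed in 1 control library at 0.724 CPM, and in all salt-stressed libraries, at 4.80, 5.46 and 3.22 CPM in G2-S3 and 4.63, 18.6 and 14.5 CPM in G2-S4. Its rise was called at both doses (log2 2.77 ± 0.49 and 4.25 ± 0.49, adjusted p = 0.0103 and 0.000141). The call in G2-S3 was lost without replicate 2 or 3 of G2-CK (highest adjusted p = 0.0646). Cluster-14027.182900 (2519 bases) was listed in 1 control library and in 2 of the 3 G2-S4 libraries, at 2.66 and 2.14 CPM, and its call in G2-S4 vs G2-CK (log2 1.35 ± 0.42, adjusted p = 0.0345) was lost in 6 of 9 fits that left out a library. Cluster-14027.85357 (425 bases) did not pass the filter. No control library listed it. It held 0.172, 0.413 and 0.601 CPM in G2-S4, and the mean of these values was at least 9.44-fold above the mean limit of the controls.

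The unigenes with a CIPK17 hit differed among themselves. Cluster-14027.172683 (1180 bases) held 43.2, 51.4 and 48.9 CPM in G2-CK, 70.4, 67.1 and 86.7 CPM in G2-S3 and 37.2, 43.5 and 42.8 CPM in G2-S4, so that G2-S3 was highest in every library. It was called higher in G2-S3 vs G2-CK (log2 0.64 ± 0.13, adjusted p = 0.017), a call that was lost without any control library (highest adjusted p = 0.0651), and lower in G2-S4 vs G2-S3 (log2 −0.86 ± 0.13, adjusted p = 0.00168). Cluster-14027.180958 was listed in 1 of 3 G2-S4 libraries, at 0.413 CPM, after 1.84 to 4.22 CPM in G2-CK and 3.42 to 9.01 CPM in G2-S3 (log2 −3.99 ± 0.62 in G2-S4 vs G2-CK, adjusted p = 0.000886). Cluster-14027.190189, a fragment of 430 bases, was called lower as well (log2 −3.27 ± 0.41, adjusted p = 0.000237). In contrast, Cluster-14027.176826 was called higher in G2-S4 vs G2-CK, with means of 8.47 and 14.1 CPM (log2 0.74 ± 0.22, adjusted p = 0.0274), a call lost without replicate 2 or 3 of G2-CK or any G2-S4 library (0.0674 to 0.108), with no filter (0.0764) and with missing values at 0 (0.0569). Cluster-14027.150068 was not called (log2 −0.00 ± 0.20, adjusted p = 0.992), and it and the 2 unigenes before it were named after their values were seen.

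**Figure D3:**
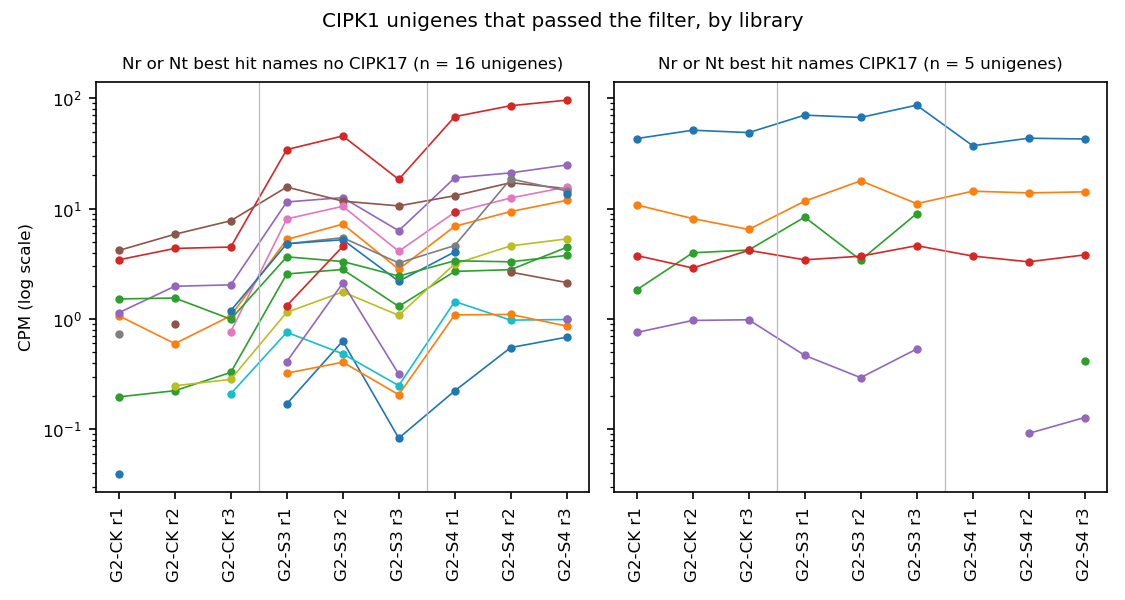
CPM (log scale) of the 21 CIPK1 unigenes that passed the filter, by library; a line joins the values of 1 unigene and a gap marks libraries that did not list it. The 16 unigenes without a CIPK17 hit are low in G2-CK and mostly high in G2-S4, and the most abundant of the 5 with such a hit peaks in G2-S3 (67.1 to 86.7 CPM).

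CIPK14, which in rice acts in defence signalling, showed the largest fold rise of any kinase name at the extreme dose. Its sums were 4.63, 5.75 and 4.23 CPM in G2-CK, 11.2, 17.5 and 7.32 CPM in G2-S3 and 41.9, 37.0 and 30.4 CPM in G2-S4, without overlap between any groups. The rise was 2.46-fold in G2-S3 (log2 1.30 ± 0.29, adjusted p = 0.0191) and 7.46-fold in G2-S4 (log2 2.90 ± 0.29, adjusted p = 7.3e-05). At the severe dose the call was lost without replicate 1 (adjusted p = 0.0561), 2 (0.0533) or 3 (0.0719) of G2-CK or replicate 1 of G2-S3 (0.0518). Both unigenes were called in G2-S4 vs G2-CK, Cluster-14027.61505 with the NAF domain (log2 2.76 ± 0.34, adjusted p = 0.000207) and Cluster-14027.231921 without it (log2 3.41 ± 0.42, adjusted p = 0.000223).

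A further group was called higher in G2-S4 vs G2-CK without a call in G2-S3 vs G2-CK. CIPK6, which directs the potassium channel AKT2 to the plasma membrane with CBL4, held 23.0, 16.5 and 19.5 CPM in G2-CK, 11.5, 23.1 and 13.3 CPM in G2-S3 and 32, 30 and 35.8 CPM in G2-S4 (log2 0.73 ± 0.24 in G2-S4 vs G2-CK, adjusted p = 0.0285). This call was lost without replicate 2 (adjusted p = 0.0995) or 3 (0.0731) of G2-CK or replicate 1 (0.0608) or 3 (0.0791) of G2-S4, and without replicate 2 of G2-S3 the value in G2-S3 vs G2-CK was called lower (log2 −0.66, adjusted p = 0.0444). CIPK7, a partner of CBL1 in cold responses, held 24.8, 24.2 and 28.2 CPM in G2-CK, 16.4, 24.5 and 15.2 CPM in G2-S3 and 44.1, 46.8 and 44.6 CPM in G2-S4 (log2 0.81 ± 0.16, adjusted p = 0.0027). Its value in G2-S3 vs G2-CK (log2 −0.46 ± 0.16, adjusted p = 0.0872) was called lower without replicate 2 of G2-S3 (log2 −0.70, adjusted p = 0.00782) and by DESeq2 (log2 −0.50, adjusted p = 0.0329). On the summed FPKM scale CIPK7 stood at 33.7 ± 4.14, 15.5 ± 3.01 and 34.4 ± 1.58 FPKM in the 3 groups, without the rise of the CPM in G2-S4. Of that sum, Cluster-14027.203231 (510 bases) held 16.3 ± 3.08 FPKM in G2-CK and 1.72 ± 0.832 FPKM in G2-S4. It carried 14% and 0.918% of the CIPK7 reads in these groups. Its part in the difference between the scales was not tested.

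Smaller rises were seen in CIPK26, CIPK19 and CIPK11. CIPK26, which phosphorylates the oxidase RBOHF, stood at 10.2 to 12.6 CPM in G2-CK, 9.72 to 11.8 CPM in G2-S3 and 15.1 to 17.2 CPM in G2-S4 (log2 0.48 ± 0.12, adjusted p = 0.00744). CIPK19 stood at 51 to 59.8 CPM, 60.2 to 67.4 CPM and 65.1 to 83.7 CPM (log2 0.44 ± 0.10 in G2-S4 vs G2-CK, adjusted p = 0.00697). Summed FPKM over the CIPK19 unigenes of at least 500 bases went the other way, from 69.0 ± 4.47 FPKM in G2-CK to 59.2 ± 3.68 FPKM in G2-S4. This sum leaves out the CIPK19 unigene with the largest mean FPKM, Cluster-14027.175564 of 456 bases. That unigene held 21.8 ± 3.91 FPKM in G2-CK and 45.8 ± 12.6 FPKM in G2-S4. Its part in the difference between the scales was not tested. CIPK11, an inhibitor of the plasma membrane proton pump, went from 10.1 to 11.9 CPM in G2-CK up to 12.6 to 13.9 CPM in G2-S4 (log2 0.30 ± 0.10, adjusted p = 0.0305). This call was lost without replicate 2 (adjusted p = 0.103) or 3 (0.0842) of G2-CK or replicate 2 (0.0884) or 3 (0.0782) of G2-S4 and with DESeq2 (0.187). The difference between the doses (log2 0.29 ± 0.10, adjusted p = 0.0475) was lost in 8 of the 9 fits that left out a library, all but that without replicate 1 of G2-CK (adjusted p up to 0.129).

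The unigenes with the largest FPKM were Cluster-14027.107912 in CIPK26 and Cluster-14027.109193 in CIPK11, neither called in any comparison. CIPK10 was scarce, at 1.27 to 2.54 CPM in G2-CK and 3.35 to 5.70 CPM in G2-S4 (log2 1.21 ± 0.39, adjusted p = 0.027), and its call was lost without replicate 1 or 3 of G2-CK or replicate 2 or 3 of G2-S4 (adjusted p between 0.0552 and 0.0893), as was that against G2-S3 (0.0401) without replicate 1 or 2 of G2-CK, 2 or 3 of G2-S3, or 2 or 3 of G2-S4 (0.0501 to 0.124).

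CIPK16, CIPK2 and CIPK18 were lowest at the severe dose, and CIPK25 fell at both doses. CIPK16, whose Arabidopsis namesake has been tied to sodium exclusion, went from 53.7, 55.2 and 69.4 CPM in G2-CK to 17.4, 27.3 and 25.3 CPM in G2-S3 and stood at 32.9, 33.7 and 40.4 CPM in G2-S4, with no overlap between groups. It fell by 1.35 on the log2 scale in G2-S3 (SE 0.17, adjusted p = 0.00258) and by 0.74 in G2-S4 (SE 0.17, adjusted p = 0.00604). G2-S4 was higher than G2-S3 (log2 0.61 ± 0.17, adjusted p = 0.0238), which did not hold without replicate 1 of G2-S3 (adjusted p = 0.0551) or replicate 3 of G2-S4 (0.0729). Cluster-14027.143180 (log2 −1.54 ± 0.19), Cluster-14027.180237 (−1.27 ± 0.21) and Cluster-14027.131858 (−1.95 ± 0.39) were called lower in G2-S3 vs G2-CK, the last not without replicate 2 or 3 of G2-CK or replicate 1 of G2-S3 (highest adjusted p = 0.079), and the fragment Cluster-14027.128056, the most abundant by FPKM, was called in G2-S4 vs G2-CK (log2 −0.99 ± 0.29, adjusted p = 0.0276), but not without replicate 3 of G2-CK or any G2-S4 library (highest adjusted p = 0.0927).

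CIPK2 stood at 98.1, 100.2 and 94.4 CPM in G2-CK, at 49.0, 59.1 and 53.7 CPM in G2-S3 and at 68.2, 75.3 and 102 CPM in G2-S4. It was 1.81-fold lower in G2-S3 than in G2-CK (log2 −0.85 ± 0.14, adjusted p = 0.00657) and 1.52-fold higher in G2-S4 than in G2-S3 (log2 0.60 ± 0.14, adjusted p = 0.0102). Replicate 3 of G2-S4 was at control level, and without it G2-S4 was called below G2-CK (log2 −0.44, adjusted p = 0.00589, against −0.26 ± 0.14 and 0.153 with it), as it was by DESeq2 (log2 −0.35, adjusted p = 0.0431). Cluster-14027.102022, with the NAF domain, held 5.17 to 6.26 CPM in G2-CK, 2.25 to 3.03 CPM in G2-S3 and 6.16 to 9.11 CPM in G2-S4 (log2 −1.20 ± 0.21 in G2-S3 vs G2-CK, adjusted p = 0.0104, lost without replicate 2 of G2-CK or 1 of G2-S3, highest 0.0578). The fragment Cluster-14027.159233, the most abundant by FPKM, was not called.

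CIPK18 was read at low counts, with 4.48 to 5.38 CPM in G2-CK, 1.25 to 3.03 CPM in G2-S3 and 3.45 to 5.69 CPM in G2-S4. Its fall in G2-S3 (log2 −1.16 ± 0.32, adjusted p = 0.0383) was lost without any of the 3 control libraries or replicate 1 of G2-S3 or of G2-S4 (adjusted p between 0.0551 and 0.111). The higher level in G2-S4 than in G2-S3 (log2 1.02 ± 0.32, adjusted p = 0.0345) was lost without replicate 2 or 3 of G2-CK or replicate 1 or 3 of G2-S3 or of G2-S4 (0.0504 to 0.108). Cluster-14027.265035 held most of the CIPK18 reads (log2 −1.35 ± 0.28 in G2-S3 vs G2-CK, adjusted p = 0.0222), and this call was lost without any control library or replicate 1 of G2-S3 (highest 0.0946). CIPK25, a single unigene (Cluster-14027.100222), went from 9.58, 14.8 and 14.3 CPM in G2-CK to 7, 5.22 and 6.78 CPM in G2-S3 and 8.08, 8.68 and 6.33 CPM in G2-S4. All salt-stressed libraries lay below all controls (log2 −1.03 ± 0.20 and −0.75 ± 0.20, adjusted p = 0.0129 and 0.0128), and both calls were lost without replicate 2 of G2-CK (adjusted p = 0.0576 and 0.0514). The doses overlapped and their difference was not called (log2 0.28 ± 0.21, adjusted p = 0.326).

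CIPK29 was among the kinases with the steepest fall. It held 55.0, 37.1 and 37.4 CPM in G2-CK and 4.33, 3.45 and 1.75 CPM in G2-S4, a 13.6-fold fall (log2 −3.77 ± 0.76, adjusted p = 0.00303). At the severe dose the libraries disagreed, with 8.87 and 6.73 CPM in replicates 1 and 2 and 49.8 CPM, within the control range, in replicate 3. G2-S3 vs G2-CK was therefore not called (log2 −0.98 ± 0.65, adjusted p = 0.334), and without replicate 3 of G2-S3 it was (log2 −2.47, adjusted p = 0.00135). The difference between the doses (log2 −2.78 ± 0.75, adjusted p = 0.0192) was lost without replicate 2 (0.0583) or 3 (0.0629) of G2-S4. All 3 CIPK29 unigenes, Cluster-14027.223994, Cluster-14027.157844 and Cluster-14027.133651, carried the NAF domain, fell in G2-S4 vs G2-CK (log2 −3.53 ± 0.65, −3.78 ± 0.73 and −3.30 ± 0.81) and were high in the same G2-S3 library. The call of the last was lost without replicate 2 or 3 of G2-S4 (highest adjusted p = 0.0564).

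CIPK4 and CIPK22 fell to low or unlisted levels in salt-stressed leaves. CIPK4, a single fragment of 424 bases (Cluster-14027.203230), went from 3.17, 6.16 and 7.30 CPM in G2-CK to 0.509, 0.379 and 1.75 CPM in G2-S3 and 0.312, 0.459 and 0.299 CPM in G2-S4 (log2 −2.65 ± 0.56 and −3.94 ± 0.62, adjusted p = 0.0153 and 0.000748). The call in G2-S3 was lost without replicate 2 (adjusted p = 0.062) or 3 (0.0599) of G2-CK or replicate 1 of G2-S3 (0.0608). The main CIPK22 unigene, Cluster-13951.0 (1697 bases), held 5.54, 4.15 and 4.92 CPM in G2-CK and was listed in none of the 6 salt-stressed libraries. It was at least 11.6-fold lower in G2-S3 and at least 10.9-fold lower in G2-S4, measured against the listing limit of those libraries. CIPK27, with 0.911 to 1.46 CPM in G2-CK and 0.0459 to 0.128 CPM in G2-S4, also fell (log2 −3.69 ± 0.93, adjusted p = 0.00889), and without replicate 3 of G2-S3 the doses differed as well (log2 −2.95, adjusted p = 0.0121). No unigene of CIPK4, CIPK22 or CIPK27 had the NAF domain annotated, so these names rest on the Swiss-Prot hit.

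CIPK17 was called lower in G2-S4 than in either other group. It stood at 28.0, 30.1 and 28.6 CPM in G2-CK, at 30.8, 29.2 and 45.1 CPM in G2-S3 and at 17, 19.9 and 20.7 CPM in G2-S4 (log2 −0.59 ± 0.16 against G2-CK, adjusted p = 0.0132, and −0.87 ± 0.16 against G2-S3, adjusted p = 0.00361). The call against G2-CK was lost without replicate 1 of G2-S4 (adjusted p = 0.0512). Cluster-14027.150067 was highest at the severe dose, with 9.37 to 10.9 CPM in G2-CK, 16.1 to 22.3 CPM in G2-S3 and 6.79 to 8.72 CPM in G2-S4 (log2 −1.26 ± 0.16 in G2-S4 vs G2-S3, adjusted p = 0.000744). Cluster-14027.180957 went from 6.62 to 8.52 CPM in G2-CK over 2.62 to 5.67 CPM in G2-S3 to 1.16 to 1.81 CPM in G2-S4 (log2 −2.31 ± 0.30 in G2-S4 vs G2-CK, adjusted p = 0.000303). AtCIPK21, a kinase of the vacuole membrane in osmotic stress, moved little, from 68.3 to 81.1 CPM in G2-CK to 56.3 to 66.0 CPM in G2-S4 (log2 −0.29 ± 0.10, adjusted p = 0.0394). That call of AtCIPK21 was lost without replicate 2 (0.124) or 3 (0.117) of G2-CK, replicate 1 of G2-S3 (0.0529) or any G2-S4 library (0.0516 to 0.122) and with RLE factors (0.055), and its main unigene, Cluster-14027.145205, was not called.

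The other 8 names were not called in any comparison: CIPK3, CIPK5, CIPK21, CIPK28, CIPK31, CIPK32, CIPK33 and AtCIPK20. CIPK32 was among the most read of all CIPKs, at 131 to 149.7 CPM in G2-CK, 122 to 151 CPM in G2-S3 and 136 to 200.5 CPM in G2-S4 (log2 0.22 ± 0.14 in G2-S4 vs G2-CK, adjusted p = 0.218). CIPK31 ranged from 31.8 to 76.2 CPM in G2-CK and from 63.2 to 106 CPM in G2-S4 (log2 0.61 ± 0.29, adjusted p = 0.105), and it was called without replicate 1 of G2-CK (log2 0.98, adjusted p = 0.0136). Its fragment Cluster-14027.83410 rose at both doses (log2 2.72 ± 0.54 and 3.61 ± 0.53, adjusted p = 0.0176 and 0.000657). The call in G2-S3 was lost without replicate 2 or 3 of G2-CK or 1 or 2 of G2-S3 (highest 0.0932). Without replicate 3 of G2-S4, CIPK32 was called in G2-S4 vs G2-S3 (log2 0.42, adjusted p = 0.0343) and CIPK21 in G2-S4 vs G2-CK (log2 0.71, adjusted p = 0.0318). AtCIPK20 was called lower in G2-S3 vs G2-CK by DESeq2 (log2 −0.99, adjusted p = 0.0474, against −0.94 ± 0.33 and 0.084). The 6 names other than CIPK31 and CIPK32 had mean levels between 0.634 and 10.9 CPM.

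Unigenes of 1 name did not always move together. In G2-S4 vs G2-CK, CIPK1, CIPK6, CIPK7 and CIPK19 each had unigenes called in both directions, among 24 names with 2 or more tested unigenes, which is 16.7% beside 14.7% of the 10073 Swiss-Prot descriptions with as many, and the median number of tested unigenes was 5 in both sets. Of the 8 tested CIPK6 unigenes 3 rose and 4 fell. Cluster-14027.134811, the most abundant, rose from 9.42, 4.63 and 6.65 CPM in G2-CK to 20.8, 18.8 and 22.5 CPM in G2-S4 (log2 1.59 ± 0.28, adjusted p = 0.00193), whereas Cluster-14027.134810 dropped from 2.42, 2.39 and 2.5 CPM to 0.402, 0.0919 and 0.257 CPM (log2 −3.25 ± 0.37, adjusted p = 0.000139). Cluster-14027.134811 held 34.9% of the CIPK6 reads in G2-CK and 63.6% in G2-S4.

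In CIPK19, Cluster-14027.175564 rose (log2 1.17 ± 0.23, adjusted p = 0.00376) and Cluster-14027.175563 fell (log2 −1.13 ± 0.17, adjusted p = 0.000726), the latter from 12.1, 9.44 and 10.7 CPM in G2-CK to 4.95, 4.23 and 5.48 CPM in G2-S4. In CIPK7, Cluster-14027.203231 fell from 3.17 to 4.31 CPM in G2-CK to 0.268 to 0.641 CPM in G2-S4 (log2 −3.11 ± 0.64, adjusted p = 0.00451), and its Nr and Nt hits named a CIPK4-like kinase of foxtail millet. The name CIPK4 itself fell as well. Cluster-14027.203232 of CIPK7 rose (log2 1.19 ± 0.22, adjusted p = 0.00228). Counts were estimated by RSEM, and reads that several copies share are divided among them by a model, so the split between near-identical copies is less certain than the sum of a name.

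**Figure D4:**
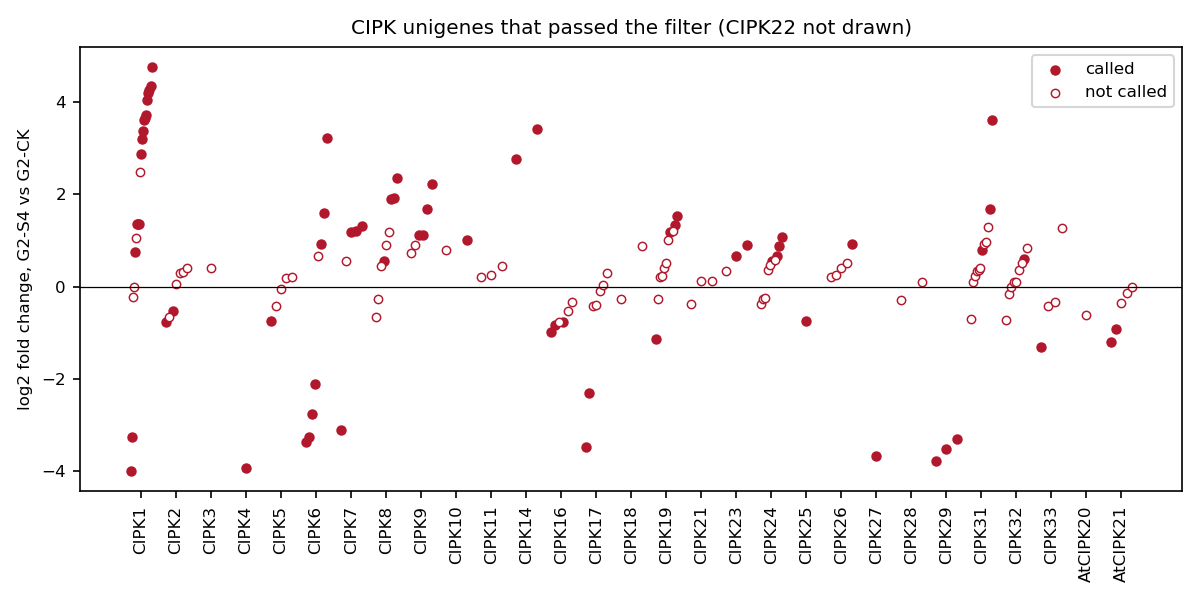
Log2 fold change in G2-S4 vs G2-CK of the tested unigenes of each kinase name except CIPK22; filled points passed the test. CIPK1 and CIPK6 have called unigenes above and below 0, from −3.99 to 4.75 in CIPK1 and from −3.37 to 3.21 in CIPK6, whereas the 3 CIPK29 unigenes lie together below −3.

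The calcium sensors and targets of these kinases were read from the same summed counts. Of 9 CBL names, 3 rose in G2-S4 vs G2-CK (33.3% beside 31.6% of all descriptions) and 2 fell (22.2% beside 20%). CBL10 and CBL4, the sensors of the SOS relay, rose from 31.7 ± 2.39 to 53.4 ± 0.327 CPM (log2 0.75 ± 0.10, adjusted p = 0.00036) and from 11.2 ± 1.95 to 23.1 ± 2.73 CPM (2.07-fold, adjusted p = 0.00341), and neither was called in G2-S3 (log2 0.16 and 0.09), except CBL10 without replicate 3 of G2-S3 (adjusted p = 0.0477). CBL1, a plasma membrane sensor, rose slightly (log2 0.39 ± 0.10, adjusted p = 0.00985). CBL2, a sensor at the vacuole, fell (log2 −0.64 ± 0.12, adjusted p = 0.0022), and CBL7 fell at both doses, from 12.6 ± 1.98 CPM to 5.11 ± 1.03 and 2.34 ± 1.38 CPM (log2 −1.30 ± 0.33 and −2.42 ± 0.35, adjusted p = 0.0299 and 0.000478). The call of CBL7 in G2-S3 was lost without any control library or replicate 1 or 2 of G2-S3 (0.0609 to 0.109). Over all partner lists 15 of 47 tested names were called in G2-S3 vs G2-CK, 9 higher (19.1% beside 10.5%) and 6 lower (12.8% beside 5.51%), and the count was 5, 6, 5 and 4 without replicate 2 or 3 of G2-CK and replicate 1 or 2 of G2-S3.

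The transporter targets of the kinases moved both ways. SOS1 (Sodium/hydrogen exchanger 7) held 86.1 ± 3.02 CPM in G2-CK, 87.1 ± 7.37 CPM in G2-S3 and 119.7 ± 6.74 CPM in G2-S4 and rose at the extreme dose alone (log2 0.47 ± 0.08, adjusted p = 0.00106). NRT1.1 (NRT1/PTR family 6.3) rose in G2-S4 from 159.7 ± 46.4 to 275 ± 6.49 CPM (log2 0.79 ± 0.17, adjusted p = 0.00439). AKT1, the potassium channel, fell at both doses (log2 −1.11 ± 0.24 and −0.67 ± 0.23, adjusted p = 0.0164 and 0.0388), and the ammonium transporter AMT1 member 1 fell with the dose, from 152 ± 16.1 over 76.4 ± 25.8 to 38.8 ± 7.48 CPM (log2 −0.99 ± 0.22 and −1.97 ± 0.23). AKT1 was not called in G2-S3 without replicate 1 or 2 of G2-S3 (0.0661 and 0.0579), nor in G2-S4 without replicate 1 of G2-CK (0.135), 2 of G2-S3 (0.0514) or any G2-S4 library (0.0612 to 0.117). The ammonium transporter was not called in G2-S3 without replicate 1 or 2 of G2-CK or of G2-S3 (0.0578 to 0.0803). NRT1.1 was also called in G2-S3 without replicate 1 of G2-CK (0.0211). The search for high-affinity potassium transporters took 2 names, neither of which names HAK5 or states high affinity. Of these, Probable potassium transporter 17 was the most read. It was not called (adjusted p = 0.098 and 0.0515), but was in G2-S3 without replicate 3 of G2-S3 (0.0335) and in G2-S4 without replicate 2 or 3 of G2-S3 (0.0223 and 0.032).

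Of 4 anion channel names 2 rose in G2-S4 vs G2-CK (50% beside 31.6% of all descriptions) and SLAH1, named after its values were seen, fell (25% beside 20%; log2 −1.18, adjusted p = 0.0467), which was lost without any control library or replicate 1 or 2 of G2-S4 (0.0694 to 0.133) and with RLE factors (0.0513). SLAH2 and SLAH3 rose from 17.4 ± 8.05 to 130.0 ± 46.8 CPM (log2 2.90 ± 0.36, adjusted p = 0.000193) and from 30.2 ± 9.10 to 147 ± 33.5 CPM (log2 2.28 ± 0.23, adjusted p = 7.3e-05). In G2-S3 SLAH2 was called (log2 1.16 ± 0.34, adjusted p = 0.0499) and SLAH3 was not (0.72 ± 0.23, 0.0598), and the SLAH2 call was lost in 7 of the 9 fits without 1 library, all but those without replicate 1 of G2-CK or 3 of G2-S4 (up to 0.165), whereas SLAH3 was called without either of these 2 libraries (0.0242 and 0.0464). SLAC1 of guard cells dipped in G2-S3, with 22.2 ± 1.77, 14.1 ± 2.24 and 23.7 ± 0.389 CPM in the 3 groups (log2 −0.65 ± 0.12 in G2-S3 vs G2-CK, adjusted p = 0.0102). Of 5 respiratory burst oxidases B and C rose in G2-S4 vs G2-CK, 40% beside 31.6% (log2 1.04 ± 0.26 and 1.32 ± 0.23, adjusted p = 0.00814 and 0.0013), and both were also called in G2-S3 without replicate 1 of G2-CK (0.0137 and 0.0394). RBOHF, the oxidase that CIPK26 phosphorylates, was not called (log2 0.28 ± 0.21, adjusted p = 0.278) and was likewise named after its values were seen.

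**Figure D5:**
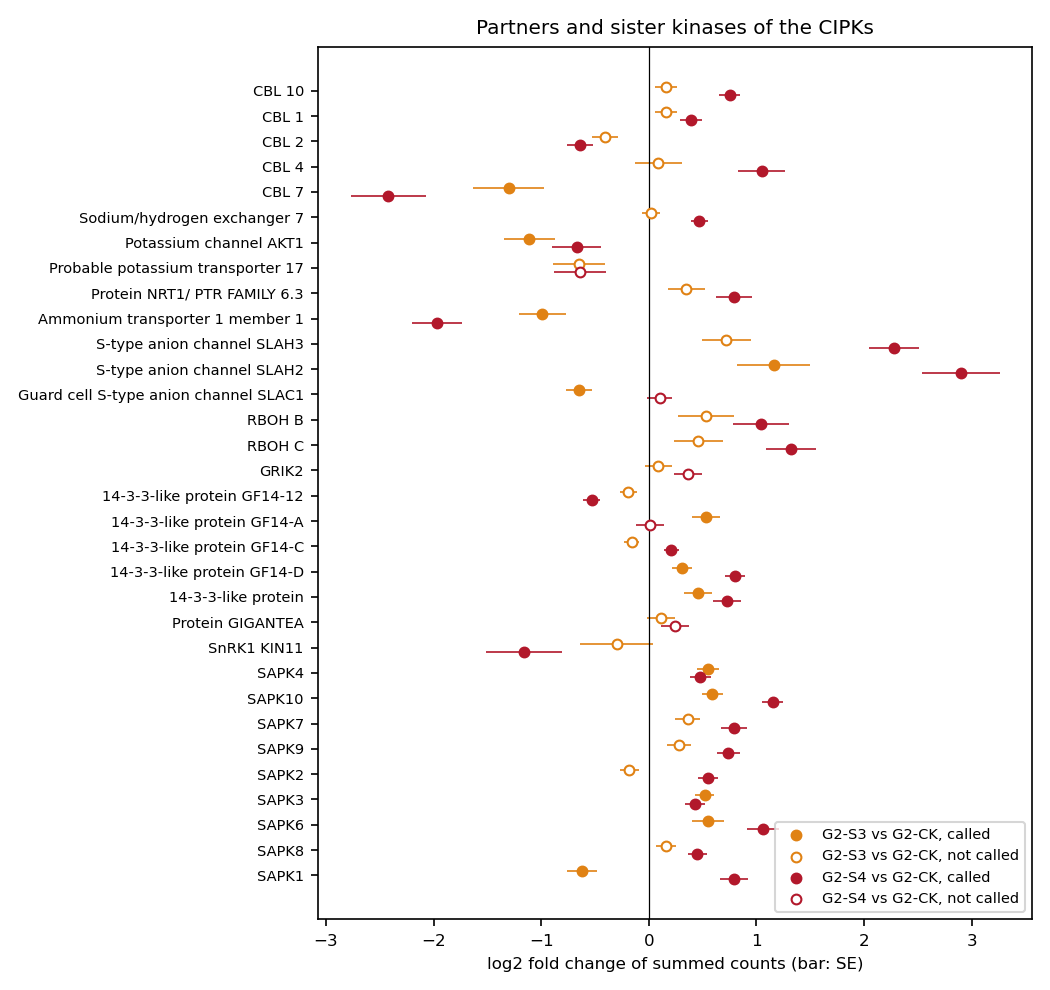
Log2 fold changes of summed counts of CBLs, transporter and channel targets, regulators and sister kinases in G2-S3 and G2-S4 against G2-CK, with standard errors as bars (3 libraries a group); filled points passed the test. CBL4, CBL10 and Sodium/hydrogen exchanger 7 lie right of 0 in G2-S4, AKT1 and the ammonium transporter lie left of 0 at both doses, and SLAH2 (2.90) lies farthest to the right.

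GIGANTEA and 14-3-3 proteins hold SOS2 inactive in Arabidopsis. GIGANTEA, at 745 ± 30.1 CPM in G2-CK, was not called (log2 0.11 and 0.24), but was in G2-S4 without replicate 3 of G2-S4 (adjusted p = 0.00565). GRIK2, an upstream kinase of SOS2, was not called (log2 0.36 ± 0.13 in G2-S4, adjusted p = 0.0509), but was without replicate 2 of G2-CK (0.0245) or 3 of G2-S4 (0.0322). Of 8 tested 14-3-3-like names 3 rose and 3 fell in G2-S4 vs G2-CK (37.5% each way beside 31.6% and 20%). GF14-D (log2 0.80 ± 0.09), GF14-C (0.21 ± 0.07) and a name given only as 14-3-3-like protein (0.73 ± 0.13) rose, GF14-12 (−0.53 ± 0.08), GF14-6 (−1.08 ± 0.23) and GF14-E (−0.72 ± 0.21) fell (the last 2 named after their values were seen), and GF14-A was called in G2-S3 (0.53 ± 0.13) and not in G2-S4. The call of GF14-C was lost without replicate 3 of G2-CK (0.123), 1 of G2-S3 (0.0511) or 1 or 3 of G2-S4 (0.0946 and 0.0701), that of GF14-E without replicate 2 or 3 of G2-CK or 1 of G2-S4 (0.0539 to 0.0638), and that of GF14-A without replicate 2 or 3 of G2-CK or 2 of G2-S3 (0.0613 to 0.0996). In G2-S3 vs G2-CK, GF14-D (log2 0.31 ± 0.09, adjusted p = 0.0429) and 14-3-3-like protein (0.46 ± 0.13, 0.046) also rose. With GF14-A, rises made up 37.5% of the names beside 10.5%. GF14-E fell in G2-S3 (−0.78 ± 0.21, adjusted p = 0.0359), 12.5% of the names beside 5.51%. The G2-S3 calls of GF14-D and 14-3-3-like protein were lost without replicate 2 or 3 of G2-CK or 1 or 2 of G2-S3 (up to 0.155), among other fits. Among the sister kinases, 10 of 11 SnRK2 names rose in G2-S4 vs G2-CK (90.9% beside 31.6%), led by SAPK10 (log2 1.15 ± 0.10, adjusted p = 4.2e-05) and SAPK6 (1.06 ± 0.15), with SAPK1, 2, 3, 4, 7, 8 and 9 between 0.43 and 0.79. The tenth was SRK2H (log2 0.89 ± 0.32, adjusted p = 0.0426), named after its values were seen, and its call was lost in 7 of the 9 fits without 1 library, all but those without replicate 1 of G2-CK or 3 of G2-S3 (up to 0.124), by DESeq2 (0.0631) and with only these groups in the fit (0.0677). In G2-S3 vs G2-CK 5 SnRK2 names were called higher (45.5% beside 10.5%) and SAPK1 was called lower (9.09% beside 5.51%). SAPK1 stood at 18.3 ± 2.56, 11.9 ± 1.66 and 31.7 ± 2.11 CPM in the 3 groups. Its fall in G2-S3 (log2 −0.62 ± 0.14, adjusted p = 0.0175) was lost without replicate 2 or 3 of G2-CK or 1 or 2 of G2-S3 (0.0541 to 0.0739). SAPK1 was higher in G2-S4 than in G2-S3 (log2 1.42 ± 0.14, adjusted p = 0.000162). The SnRK1 subunit KIN11 fell in G2-S4 vs G2-CK (log2 −1.16 ± 0.35, adjusted p = 0.0202), which was lost without replicate 1 or 3 of G2-CK or of G2-S4 (0.0505 to 0.0686). A search for the phosphatases ABI1 and ABI2 took no description.

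The labelled tissue was checked by marker names. Chlorophyll a-b binding proteins summed to 2756 to 3086 CPM in G2-CK and 1305 to 1606 CPM in G2-S4, and the small subunit of Rubisco to 2965 to 3526 and 565 to 665 CPM. The Casparian strip proteins of roots stood far below these leaf markers, at 5.08 to 5.5 CPM in G2-CK and 2.27 to 2.99 CPM in G2-S4. Guard cell FAMA stood at 12.4 to 18.4 CPM in G2-CK and 18.8 to 22.6 CPM in G2-S4, and phloem sucrose transporters at 791 to 933 and 935 to 973 CPM. Of the senescence markers, the senescence-specific cysteine protease stood at 2521 to 3166 CPM in G2-CK and 495 to 590.1 CPM in G2-S4, and the stay-green proteins at 119.8 to 202 and 393 to 722 CPM. These sums carry no test, and their part in the kinase values was not tested.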

How the data were processed

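RNA-seq of 9 leaf libraries was analysed. The authors assembled clean paired reads de novo with Trinity, grouped transcripts with Corset and deposited, per library, expected counts estimated by RSEM, FPKM and the length of each unigene with its annotation. The deposited expected counts were rounded to whole numbers. The deposited FPKM implied an effective length, and for 9 of 210 members reads per FPKM varied by more than 1.5-fold between libraries. Library totals were recovered from count, FPKM and length, and entries below the listing limit of 0.3 FPKM were given that limit in reads (median 2.11 reads) when unigenes were tested and 0 in sums. Kinases were therefore compared with each other by FPKM and libraries by CPM.

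Unigenes (127554) and sums by Swiss-Prot description (12242) were filtered with filterByExpr (minimum count 10), scaled with TMM and tested with edgeR 4.0.16 (glmQLFit, glmQLFTest, two-sided) in R 4.3.3 over all 3 groups, with Benjamini-Hochberg adjustment over the whole table and a threshold of 0.05. A run of the procedure on simulated counts used an assumed spread. Its outcome is not given, and no result here rests on it. Differences between G2-S4 and G2-S3 come from the same fit, and the SE of a log2 fold change is its size divided by the square root of the F statistic. DESeq2 1.42.0, RLE factors, no filter, a replicate block, fits of 2 groups, other values for missing entries and leaving out each library were tried. P-values measure the spread between pots of 1 clone, and comparisons against G2-CK share the control libraries.

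Members, partner lists and marker names were chosen with earlier results of these data known. Named with values were the tested kinase names, the unigene with the largest mean FPKM of each called name of at least 5 CPM, the up to 8 called unigenes of largest rise and fall per comparison with a mean of at least 1 CPM, unigenes named by the study, and partners that were called at 5 CPM or more or were the most read of their list. No sequences are given.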

Additional observations from a re-analysis of the deposited data

Results flagged for a closer look

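For 4 CIPK names the fitted values of G2-S3 and G2-S4 against G2-CK had opposite signs and the difference between the doses was called (edgeR). None of the 4 was called in G2-S3 vs G2-CK, and all were in G2-S4 vs G2-CK. The difference G2-S4 minus G2-S3 on the log2 scale was 1.27 for CIPK7, 1.03 for CIPK6, 0.57 for CIPK26 and −0.87 for CIPK17. For CIPK26 the value in G2-S3 was close to 0 (log2 −0.09 ± 0.12). For CIPK6 and CIPK7 replicate 2 of G2-S3 was the highest G2-S3 library (23.1 and 24.5 CPM), and for CIPK17 replicate 3 was (45.1 CPM). Groups of 3 libraries were too small for a check of single outlying libraries.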

How the results depend on the processing

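No kinase, named unigene or named partner reversed its direction under any alternative that gave it a call. The count of CIPK unigenes called in G2-S3 vs G2-CK (32) was 13 without the filter on low counts, 19 with missing values at 0 and 12 to 41 when 1 library was left out. In G2-S4 vs G2-CK (72) it was 58 to 76 and in G2-S4 vs G2-S3 (49) 29 to 44 when 1 library was left out, and the last was 25 without the filter and 30 with missing values at 0. Kinase names called were 4 to 10, 16 to 20 and 10 to 13 in these fits. Partner names called in G2-S3 vs G2-CK (15) were 4 to 18, and 26 to 33 and 16 to 24 in the other comparisons. Of 80 calls of named unigenes, 50 held in every fit without 1 library and 20 were lost in 4 or more. Libraries of equal replicate number did not deviate together (correlations between −0.11 and 0.0389). The labels do not say whether a number stands for a block of pots, and these correlations cannot settle it. With the replicate block 27, 66 and 39 CIPK unigenes and 7, 18 and 11 kinase names were called, and 7 partner names in G2-S3 vs G2-CK. Under the block CIPK18 (0.0885) and CIPK24 (0.0603) were not called in G2-S3 vs G2-CK, CIPK6 (0.0601), CIPK11 (0.0585) and AtCIPK21 (0.0757) in G2-S4 vs G2-CK, and CIPK11 (0.0869), CIPK18 (0.0782) and CIPK29 (0.063) in G2-S4 vs G2-S3 (adjusted p), while CIPK31 was in G2-S4 vs G2-CK (0.0281). Levels under the 0.3 FPKM limit and copies that share reads limit what can be said of single unigenes.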

Other observations

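The NAF domain, the part of a CIPK that binds CBL sensors, was also annotated in 42 unigenes outside the set described above. Of these, 23 had no Swiss-Prot hit and 19 had a hit to another protein. The filter was passed by 27 of the 42. In G2-S4 vs G2-CK 3 of these were called lower (as 13.8% of all tested unigenes were) and 24 were not called, and in G2-S4 vs G2-S3 1 was called lower (as 6.88% were). The Nr description named a CIPK in 191 unigenes, of which 181 belonged to the 210 described here.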
